A study of Homo sapiens with 9 samples.

Results

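The genes of interest are 10 classical players of the epithelial to mesenchymal transition (EMT), chosen by symbol: the transcription factors SNAI1, SNAI2, TWIST1, ZEB1 and ZEB2, the cadherins CDH1, CDH2, CDH3 and CDH11, and the intermediate filament protein VIM. The gene tables held 27111 genes, and all 10 members were found in every library and passed the filter on low counts, together with 17108 genes in all. They were measured by RNA-seq in multicellular tumor spheroids (MTSs) of PC-3, an androgen-independent line derived from a bone metastasis of a prostate adenocarcinoma. The comparison was between 3 groups of 3 libraries each: Empty cells, which carry the control vector, NF-YAl cells, over-expressing the long splice isoform of NF-YA, and NF-YAs cells, over-expressing the short isoform. All 3 lines were made by lentiviral infection with pSIN vectors and puromycin selection, so vector and selection are shared by the controls, the introduced NF-YA sequences are murine, the endogenous gene remains, and each library is a pool of spheroids. Libraries carry letters, A, B and C for Empty and NF-YAs and A, B and D for NF-YAl.

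NF-YA is the DNA-binding subunit of NF-Y, a trimer that recognises the CCAAT box of promoters. In EMT, epithelial cells loosen their E-cadherin junctions and take up a migratory state. Snail, Slug, ZEB and TWIST factors bind E-box sequences and repress epithelial genes such as CDH1, while N-cadherin, cadherin-11 and vimentin are commonly used as signs of the mesenchymal state. In bulk libraries, fewer cells of a type and less RNA per cell cannot be told apart.

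The libraries held from 18076979 to 27163976 expected counts. NFYA, whose counts may also take reads of the introduced murine sequence, was at 89.2, 96.7 and 89.4 CPM (counts of a gene relative to library size, scaled by TMM) in Empty A, B and C, at 287, 383 and 353 CPM in NF-YAl A, B and D and at 264, 263 and 254 CPM in NF-YAs A, B and C. The labels therefore held in all 9 libraries as far as total NFYA tells, but this sum does not separate the isoforms. KRT8, KRT18, KRT19 and EPCAM, the 4 epithelial markers, summed to 1164 to 1287 CPM in Empty, 736 to 750 CPM in NF-YAl and 725 to 830 CPM in NF-YAs. The 5 blood markers summed to 20.4 to 71.0 CPM over all libraries, nearly all of it CD68, and HBB had no count. The 5 endothelial markers summed to 41.0 to 46.1 CPM in Empty, 325 to 717 CPM in NF-YAl and 191 to 288 CPM in NF-YAs, most of it KDR. The 7 fibroblast markers, which include collagen genes, summed to 26.3 to 71.7, 77.0 to 263 and 101 to 150 CPM in the same order, nearly all of it COL3A1. Of the 5 luminal prostate markers KLK3 had no count in any library, and their sum was 16.9 to 23.1 CPM in Empty, 36.5 to 61.1 CPM in NF-YAl and 27.2 to 32.3 CPM in NF-YAs. The part of these marker shifts in the values of the 10 genes was not tested.

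A gene was called higher or lower where the adjusted p of edgeR's quasi-likelihood test was under 0.01 and the log2 fold change was beyond 1 in size, and "rose" and "fell" are used for such genes. In NF-YAs spheroids, SNAI2 and ZEB2 rose, and SNAI1, CDH1, CDH3 and CDH11 fell against Empty. In NF-YAl spheroids CDH3 and CDH11 fell against Empty and no member rose. Between the isoforms, SNAI1, CDH1 and CDH3 were higher and SNAI2 lower in NF-YAl than in NF-YAs. TWIST1, ZEB1, CDH2 and VIM were called in no comparison. The NF-YAl libraries were less alike than the NF-YAs libraries. The chi-square per gene between the counts of replicate libraries was 30.0 to 90.0 in NF-YAl, 11.3 to 49.5 in Empty and 6.20 to 10.6 in NF-YAs. The part of this spread in the number of calls was not tested.

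The shares of all tested genes give the background for these counts. In NF-YAl against Empty, 0 of 10 members were called higher and 2 lower, where 4.76% of all tested genes were called higher and 3.5% lower. In NF-YAs against Empty, 2 members were called higher and 4 lower, against 5.44% and 3.9% of all tested genes. In NF-YAl against NF-YAs, 3 were called higher and 1 lower, against 1.74% and 2.86%. Without the limit on fold, 2, 7 and 6 members passed the adjusted p in the 3 comparisons, against 19.6%, 22.6% and 11% of all tested genes. The libraries of the groups did not overlap for 6, 8 and 7 members, against 42.4%, 56.4% and 39.5% of all tested genes. The median log2 fold change of the members was -0.27, -0.23 and -0.21, beside 0.01, -0.00 and 0.02 over all tested genes. The first 2 comparisons share the Empty libraries.

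**Figure D1:**
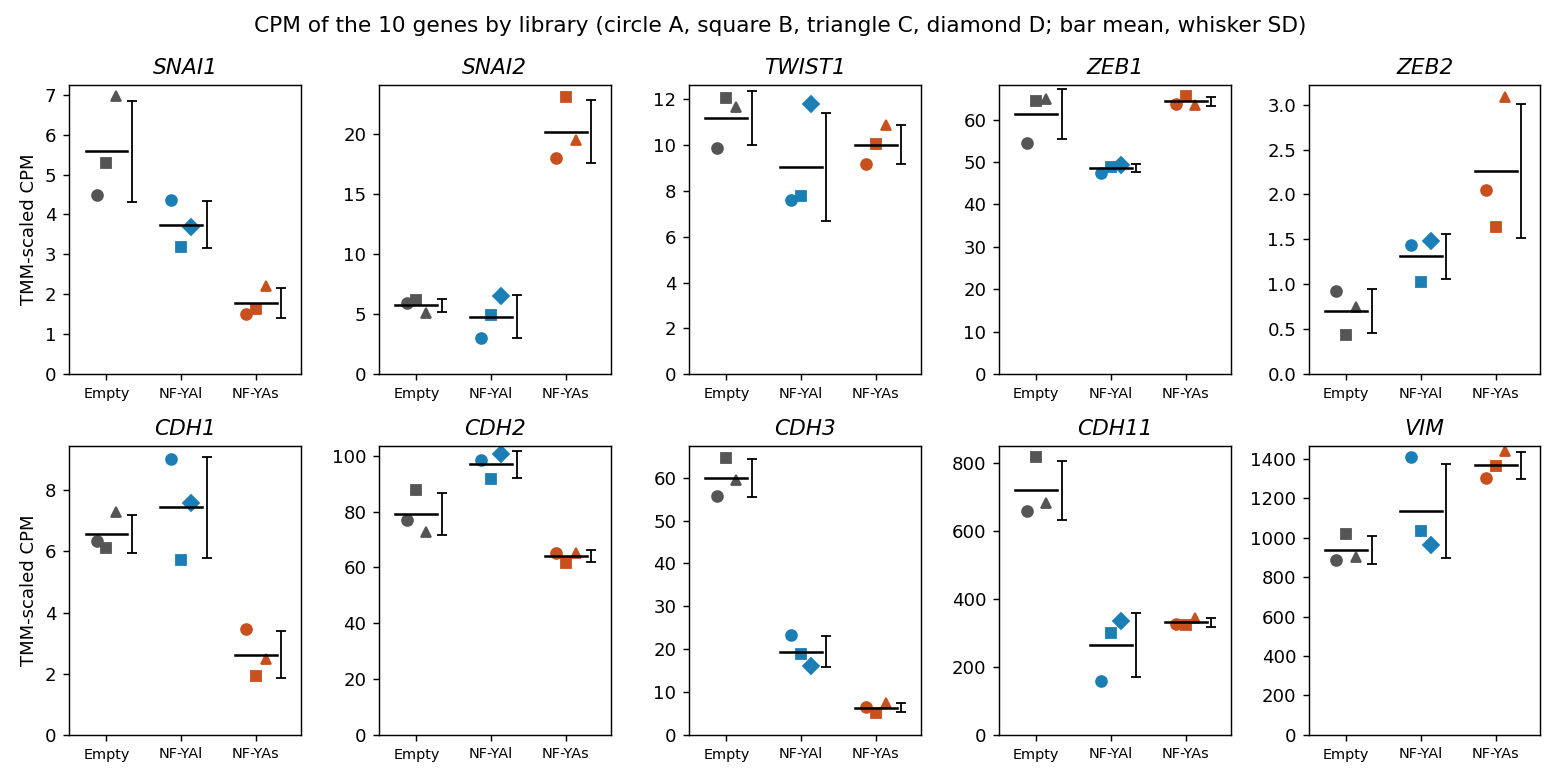
CPM of each of the 10 genes (y axis, TMM-scaled, starting at 0) in the 3 groups (x axis); each point is a library, the bar is the group mean and the whisker the SD of 3 libraries. SNAI2 stands at 18.04 to 23.1 CPM in NF-YAs against 2.97 to 6.49 CPM in the other libraries, and CDH3 descends from 55.8 to 64.5 CPM in Empty through 16.2 to 23.3 CPM in NF-YAl to 5.18 to 7.33 CPM in NF-YAs.

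**Figure D2:**
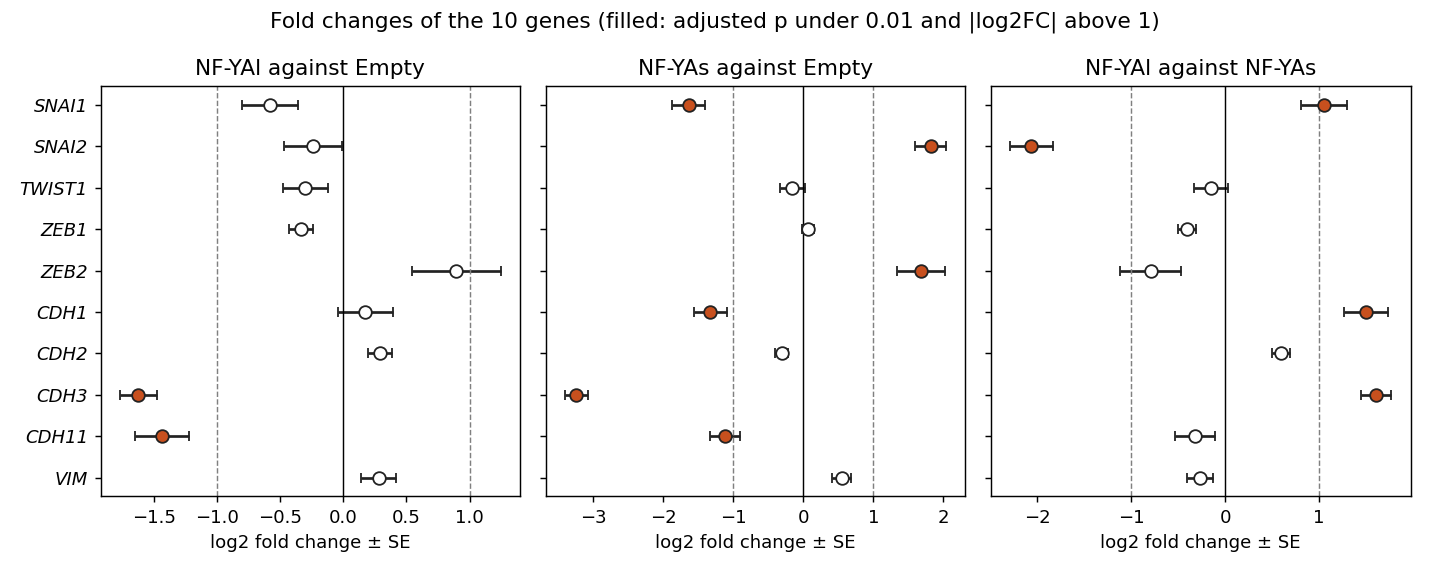
Fitted log2 fold change (x axis) with its standard error (whisker) for each of the 10 genes (y axis) in the 3 comparisons (each panel has its own scale); filled points passed an adjusted p of 0.01 and a log2 fold change of 1 (dashed lines). CDH3 has the change largest in size among these genes, -3.24 in NF-YAs against Empty.

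Among the transcription factors, SNAI1 (Snail), a zinc finger repressor of CDH1, was at 4.49, 5.28 and 6.97 CPM in Empty A, B and C, at 4.35, 3.19 and 3.70 CPM in NF-YAl A, B and D, and at 1.51, 1.64 and 2.21 CPM in NF-YAs A, B and C. Every NF-YAs library lay below every other library, and every NF-YAl library below every Empty one, although NF-YAl A and Empty A were close. The log2 fold change of SNAI1 was -1.63 (SE 0.239, adjusted p = 0.000250) in NF-YAs against Empty and -0.58 (SE 0.222, adjusted p = 0.0650) in NF-YAl against Empty. In NF-YAl against NF-YAs it was 1.05 (SE 0.243, adjusted p = 0.00904), close to both limits. This last call was lost when any of the 9 libraries was left out, with an adjusted p of 0.0103 to 0.0436. The gene lies on chromosome 20, from 48599517 to 48605423 on the forward strand of GRCh37, the build of the deposited tables.

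SNAI2 (Slug), the close relative of Snail, went the other way. It was at 5.91, 6.16 and 5.12 CPM in Empty A, B and C, at 2.97, 4.91 and 6.49 CPM in NF-YAl A, B and D, and at 18.04, 23.1 and 19.5 CPM in NF-YAs A, B and C. The NF-YAs libraries lay far above all others, and NF-YAl overlapped Empty on both sides. The log2 fold change was 1.82 (SE 0.222, adjusted p = 6.96e-05) in NF-YAs against Empty, -0.25 (SE 0.230, adjusted p = 0.456) in NF-YAl against Empty and -2.06 (SE 0.226, adjusted p = 9.32e-05) in NF-YAl against NF-YAs. On the TPM scale, which corrects for length and so allows genes to be compared within a library, SNAI2 over SNAI1 was 1.05, 0.923 and 0.583 in Empty A, B and C and 0.543, 1.22 and 1.39 in NF-YAl A, B and D. In NF-YAs A, B and C this ratio was 9.46, 11.1 and 6.98. Slug thus exceeded Snail in all 3 NF-YAs libraries by more than in any other library.

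TWIST1, a basic helix-loop-helix factor, was at 9.86, 12.04 and 11.6 CPM in Empty A, B and C, at 7.58, 7.77 and 11.8 CPM in NF-YAl A, B and D and at 9.16, 10.1 and 10.9 CPM in NF-YAs A, B and C. All 3 groups overlapped, and no comparison passed the test (log2 fold changes of -0.30, SE 0.179, in NF-YAl and -0.16, SE 0.179, in NF-YAs against Empty, adjusted p = 0.226 and 0.534). Between the isoforms the log2 fold change was -0.15 (SE 0.181, adjusted p = 0.591).

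ZEB1, a zinc finger and homeobox repressor of epithelial genes, had the highest mean TPM of the 5 factors in each group, although SNAI2 exceeded it in 1 of the 3 NF-YAs libraries. It was at 54.4, 64.5 and 64.9 CPM in Empty A, B and C, at 47.5, 48.8 and 49.3 CPM in NF-YAl A, B and D and at 63.7, 65.6 and 63.5 CPM in NF-YAs A, B and C. The NF-YAl libraries were the lowest and overlapped neither of the other groups, while NF-YAs and Empty overlapped. The differences were small: the log2 fold change was -0.34 (SE 0.0924, adjusted p = 0.0152) in NF-YAl against Empty, 0.07 (SE 0.0920, adjusted p = 0.597) in NF-YAs against Empty and -0.40 (SE 0.0926, adjusted p = 0.00860) in NF-YAl against NF-YAs. The antisense gene ZEB1-AS1 overlaps the start of ZEB1 on chromosome 10 of GRCh37 (31495207 to 31609376 on the reverse strand, ZEB1 from 31607424 to 31818742 on the forward strand). It was lower in every NF-YAs library than in NF-YAl, with a log2 fold change of 0.80 (SE 0.246, adjusted p = 0.0342) in NF-YAl against NF-YAs. The library kit keeps the strand, but whether counting used it is not given in the sources used here, so reads of the shared stretch may be divided between the 2 genes.

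ZEB2 (chromosome 2 of GRCh37, 145121931 to 145278624 on the reverse strand), the relative of ZEB1, had 11 to 67 counts per library and the lowest TPM of the 10 genes in every library. It was at 0.923, 0.437 and 0.748 CPM in Empty A, B and C, at 1.43, 1.02 and 1.48 CPM in NF-YAl A, B and D, and at 2.05, 1.64 and 3.09 CPM in NF-YAs A, B and C. Every NF-YAs library lay above every NF-YAl library, and these above every Empty library. The log2 fold change was 1.69 (SE 0.343, adjusted p = 0.00238) in NF-YAs against Empty, 0.89 (SE 0.355, adjusted p = 0.0733) in NF-YAl against Empty and -0.79 (SE 0.324, adjusted p = 0.0982) in NF-YAl against NF-YAs. The call in NF-YAs was lost without Empty B (1.44, adjusted p = 0.0124), without Empty C (1.73, adjusted p = 0.0109) and without NF-YAs C (1.38, adjusted p = 0.0161). ZEB1 exceeded ZEB2 in TPM by 67.4, 123 and 83.2 times in Empty A, B and C, by 25.03, 47.6 and 28.7 times in NF-YAl A, B and D and by 32.5, 48.1 and 25.5 times in NF-YAs A, B and C. The antisense gene ZEB2-AS1 had no count in any library.

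CDH1 (E-cadherin), the adhesion molecule of epithelial adherens junctions, was low in all groups. It was at 6.33, 6.12 and 7.28 CPM in Empty A, B and C, at 9.02, 5.73 and 7.60 CPM in NF-YAl A, B and D, and at 3.45, 1.94 and 2.49 CPM in NF-YAs A, B and C. Every NF-YAs library lay below all others, while NF-YAl and Empty overlapped. CDH1 had a log2 fold change of -1.33 (SE 0.235, adjusted p = 0.000931) in NF-YAs against Empty, 0.17 (SE 0.217, adjusted p = 0.585) in NF-YAl against Empty and 1.503 (SE 0.235, adjusted p = 0.000978) in NF-YAl against NF-YAs. In NF-YAs spheroids CDH1 and its repressor SNAI1 were thus both lower than in Empty, whereas SNAI2 was higher.

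The transcript estimates for CDH1 also differed, on few reads. All of the CDH1 TPM was assigned to the 4818-nt transcript in each Empty and NF-YAl library, on 140 to 185 expected counts. In NF-YAs A, B and C this transcript held 74.5%, 52.9% and 77.3% of the CDH1 TPM, on 48.1, 21.0 and 41.9 expected counts. The rest went to a 4635-nt transcript in NF-YAs A (15.9 expected counts) and NF-YAs B (17.97 expected counts) and to a 4672-nt transcript in NF-YAs C (11.9 expected counts). These transcripts share most of their sequence, so the split is a model estimate, and it was not the same transcript in all NF-YAs libraries.

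CDH2 (N-cadherin), typical of neural and mesenchymal cells, was at 77.0, 87.7 and 72.9 CPM in Empty A, B and C, at 98.7, 91.6 and 101 CPM in NF-YAl A, B and D, and at 65.3, 61.7 and 65.3 CPM in NF-YAs A, B and C. The 3 groups did not overlap, with NF-YAl on top and NF-YAs at the bottom, but the differences were under the fold limit. The log2 fold change was 0.29 (SE 0.0945, adjusted p = 0.0333) in NF-YAl against Empty, -0.31 (SE 0.0950, adjusted p = 0.0251) in NF-YAs against Empty and 0.60 (SE 0.0951, adjusted p = 0.00108) in NF-YAl against NF-YAs. The TPM ratio of CDH2 over CDH1 was 14.4, 17.0 and 11.96 in Empty A, B and C, 13.2, 19.2 and 15.8 in NF-YAl A, B and D, and 22.3, 37.9 and 31.3 in NF-YAs A, B and C. The ratio was highest in the NF-YAs libraries, where CDH2 itself was lowest. The shorter of the CDH2 transcripts, of 3855 nt, held 54.9% ± 2.44 of the CDH2 TPM in Empty (SD, n = 3). The share was 60.8% ± 2.66 for NF-YAl libraries and 59.0% ± 6.44 for NF-YAs libraries.

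Promoter windows were looked at because NF-Y binds CCAAT and the Snail and ZEB factors bind E-boxes. RefSeq windows on GRCh38.p14, from 250 bases before to 50 bases after a start, were matched by symbol for 4 of the 10 members: 7 windows of ZEB1, 2 of CDH2, 1 of ZEB2 and 1 of VIM, 11 in all. Those of SNAI1, SNAI2, TWIST1, CDH1, CDH3 and CDH11 were not matched. CCAAT, on either strand, was found in 34.6% of all 35116 windows and in 2 of the 11, both of them CDH2 windows. The general E-box CANNTG was found in 68.7% of all windows and in 6 of the 11. The narrower E-box CACCTG, on either strand, was found in 20.6% of all windows and in 2 of the 11, both of them ZEB1 windows. CACCTG matches are also CANNTG matches. A match is a description of letters and not a bound site.

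The 250 bases before the start are shown 5′ to 3′ on the gene's strand for the CDH2 windows, because they are the member windows with CCAAT, and for the most upstream ZEB1 window, because it holds CACCTG. Capitals mark the CCAAT box, read on either strand, in CDH2. In ZEB1 they mark the narrower E-box, here read on the opposite strand. The CDH2 windows lie at chr18:28177131-28177380 and chr18:28036642-28036891, both on the reverse strand, with matches beginning 76 and 67 bases before the start, and the ZEB1 window lies at chr10:31318167-31318416 on the forward strand, with its match beginning 57 bases before the start.
CDH2 upstream window: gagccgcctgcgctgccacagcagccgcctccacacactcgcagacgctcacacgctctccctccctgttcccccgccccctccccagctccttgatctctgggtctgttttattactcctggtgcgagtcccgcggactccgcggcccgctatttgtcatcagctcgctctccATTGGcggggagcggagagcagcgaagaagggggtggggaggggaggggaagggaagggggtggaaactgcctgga
CDH2 downstream window: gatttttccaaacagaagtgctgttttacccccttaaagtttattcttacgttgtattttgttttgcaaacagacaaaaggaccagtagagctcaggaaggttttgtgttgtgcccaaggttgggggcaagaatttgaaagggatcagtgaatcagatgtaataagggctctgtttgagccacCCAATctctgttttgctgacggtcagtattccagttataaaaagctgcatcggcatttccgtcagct
ZEB1 upstream window: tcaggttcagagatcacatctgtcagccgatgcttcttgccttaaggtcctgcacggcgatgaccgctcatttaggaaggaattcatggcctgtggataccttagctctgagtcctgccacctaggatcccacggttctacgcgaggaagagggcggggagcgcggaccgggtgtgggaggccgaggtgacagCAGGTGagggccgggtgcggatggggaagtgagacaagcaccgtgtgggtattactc

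CDH3 (P-cadherin), a cadherin of basal epithelial cells, had the changes largest in size among the 10 genes against Empty. It was at 55.8, 64.5 and 59.4 CPM in Empty A, B and C, at 23.3, 18.9 and 16.2 CPM in NF-YAl A, B and D, and at 6.52, 5.18 and 7.33 CPM in NF-YAs A, B and C. The 3 groups were far apart, in the order Empty, NF-YAl, NF-YAs. CDH3 fell by 1.63 on the log2 scale (SE 0.149, adjusted p = 1.06e-05) in NF-YAl and by 3.24 (SE 0.163, adjusted p = 2.36e-07) in NF-YAs against Empty, and NF-YAl stood 1.61 above NF-YAs (SE 0.161, adjusted p = 5.09e-05). On GRCh37 CDH3 (chromosome 16, 68670092 to 68761371) ends 9824 bases before CDH1 begins (68771195 to 68869440), both on the forward strand. The neighbours therefore shared their direction in NF-YAs against Empty, while in NF-YAl CDH3 fell and CDH1 did not pass the test. The TPM ratio of CDH3 over CDH1 was 11.5, 13.9 and 10.8 in Empty A, B and C, 3.40, 4.35 and 2.80 in NF-YAl A, B and D and 2.47, 3.52 and 3.89 in NF-YAs A, B and C.

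CDH11 (cadherin-11, or OB-cadherin), a cadherin of osteoblasts and mesenchymal cells, was the cadherin with the highest TPM in Empty. It lies on chromosome 16 of GRCh37, from 64977656 to 65160015 on the reverse strand. It was at 658, 818 and 682 CPM in Empty A, B and C, at 158, 301 and 336 CPM in NF-YAl A, B and D, and at 326, 322 and 345 CPM in NF-YAs A, B and C. Both over-expressing lines were below Empty without overlap, and they overlapped each other. NF-YAl A stood apart from the other libraries of its group. CDH11 fell by 1.44 on the log2 scale (SE 0.216, adjusted p = 0.000351) in NF-YAl and by 1.12 (SE 0.214, adjusted p = 0.00158) in NF-YAs against Empty. Between the isoforms its log2 fold change was -0.32 (SE 0.212, adjusted p = 0.302). Without NF-YAl A the log2 fold change of NF-YAl against Empty was -1.17 (adjusted p = 8.29e-06). The 6796-nt transcript held 94.6% ± 0.972, 94.5% ± 1.98 and 94.1% ± 1.26 of the CDH11 TPM in Empty, NF-YAl and NF-YAs (SD, n = 3).

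The composition of the cadherins shifted in a different way in each line. Of the summed TPM of the 4 cadherins, CDH11 made up 72.9%, 74.6% and 73.5% for Empty A, B and C. It made up 41.2%, 60.1% and 61.4% for NF-YAl A, B and D. The NF-YAs A, B and C libraries gave 71.8%, 73.1% and 72.9%. CDH2 followed with 14.5%, 13.5% and 13.3% for Empty, 44.04%, 31.2% and 31.2% for NF-YAl, and NF-YAs libraries gave 24.4%, 24.1% and 23.4%, in the same order. CDH3 took 11.6%, 11.1% and 12.02%, then 11.4%, 7.07% and 5.51%, then 2.70%, 2.24% and 2.91%. Against Empty, the CDH2 share was thus higher in both over-expressing lines, and the NF-YAs share of CDH3 was the lowest. These shares have no test, and in a sum that is fixed a lower share of 1 gene raises the others.

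VIM (vimentin), the filament protein of mesenchymal cells, was the most abundant of the 10 genes in every library. It was at 888, 1018 and 902 CPM in Empty A, B and C, at 1408, 1036 and 961 CPM in NF-YAl A, B and D, and at 1302, 1363 and 1438 CPM in NF-YAs A, B and C. The NF-YAs libraries lay above Empty without overlap, and NF-YAl A reached the NF-YAs range while NF-YAl B and D lay near Empty. VIM had a log2 fold change of 0.55 (SE 0.139, adjusted p = 0.00894) in NF-YAs against Empty, which passed the p but not the fold limit, 0.28 (SE 0.139, adjusted p = 0.150) in NF-YAl against Empty and -0.27 (SE 0.139, adjusted p = 0.183) in NF-YAl against NF-YAs. The TPM ratio of VIM over CDH1 was 328, 391 and 292 in Empty A, B and C, 368, 426 and 297 in NF-YAl A, B and D and 884, 1635 and 1363 in NF-YAs A, B and C. VIM-AS1, the antisense gene that overlaps the start of VIM on chromosome 10 of GRCh37 (17256238 to 17272017, VIM from 17270240 to 17279592), was at 0.84 to 1.18 CPM in Empty, 1.64 to 1.73 CPM in NF-YAl and 1.49 to 2.37 CPM in NF-YAs. Its log2 fold changes against Empty, 0.73 (SE 0.264, adjusted p = 0.0510) and 0.86 (SE 0.264, adjusted p = 0.0243), did not pass the threshold.

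The order of the 10 genes by TPM was headed by VIM and ended by ZEB2 in every library. In Empty the order of means was VIM (529 TPM), CDH11 (121 TPM), CDH2 (22.7 TPM), CDH3 (18.9 TPM), ZEB1 (11.3 TPM), TWIST1 (8.23 TPM), SNAI1 (3.96 TPM), SNAI2 (3.30 TPM), CDH1 (1.58 TPM) and ZEB2 (0.13 TPM). The ranges of neighbours overlapped for CDH2 with CDH3 and for SNAI1 with SNAI2, although CDH2 exceeded CDH3 in each of the 3 Empty libraries. In the NF-YAs order, SNAI2 (13.0 TPM) stood beside ZEB1 (13.5 TPM) with overlapping ranges, and CDH3 (2.26 TPM) stood below TWIST1. In NF-YAl the ranges of most neighbours overlapped. Within each of the 3 NF-YAl libraries, however, ZEB1 exceeded TWIST1, CDH3 exceeded SNAI2 and SNAI1 exceeded CDH1. The order of TWIST1 with CDH3, of SNAI2 with SNAI1 and of CDH11 with CDH2 differed between NF-YAl libraries, and CDH2 exceeded CDH11 in NF-YAl A. TPM of NF-YAl D ran high against its CPM for genes in general (1.56 times the typical ratio, 0.793 to 1.09 in the other libraries), so TPM were compared between genes of a library and CPM between libraries.

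Wider lists, 8 in number, put these genes in context. Counts in the lists are called genes out of those tested, and the members of each list were not picked for how they moved, although earlier results of these libraries were known. Among 14 further EMT regulators, 3 rose in NF-YAl and 2 in NF-YAs, and none fell. ID3, an inhibitor of helix-loop-helix factors, was at 33.3 CPM in NF-YAl and 26.5 CPM in NF-YAs against 8.56 CPM in Empty (log2 fold changes of 1.95, SE 0.362, and 1.63, SE 0.362). TCF4, which encodes an E-box factor, rose in NF-YAl (1.26, SE 0.148). The remaining called gene, TWIST2, named after its values were seen, had no count in Empty, 2 to 18 counts in NF-YAl and 20 to 40 counts in NF-YAs. The median log2 fold changes of this list were 0.13 and 0.15. No gene of the list was called between the isoforms (median 0.06). Of 18 cofactors and stability regulators of the factors, NUAK1, a kinase, rose in both lines (1.66, SE 0.200, and 1.29, SE 0.199), WTIP, named after its values were seen, rose in NF-YAl (1.21, SE 0.304), and none was called between the isoforms. The medians were -0.00, -0.02 and 0.08.

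Of 10 epithelial keepers, factors that hold the epithelial state, 2 fell in NF-YAl and 4 in NF-YAs against Empty, none rose, and 3 were higher in NF-YAl than in NF-YAs. ELF3, an epithelial ETS factor, fell from 45.6 CPM in Empty to 10.2 CPM in NF-YAl (-2.16, SE 0.285) and 1.84 CPM in NF-YAs (-4.63, SE 0.342). EHF, another ETS factor, was at 50.03 CPM in Empty, 38.1 CPM in NF-YAl and 5.80 CPM in NF-YAs, a fall in NF-YAs (-3.11, SE 0.254). KLF4 fell in NF-YAs from 43.5 to 20.8 CPM (-1.06, SE 0.187), and FOXA1 was at 160 CPM in NF-YAl against 44.5 CPM in NF-YAs (1.84, SE 0.147). Empty lay between them for FOXA1, at 88.8 CPM. Against Empty FOXA1 was higher in NF-YAl (0.85, SE 0.143) and lower in NF-YAs (-0.997, SE 0.145), and both passed the adjusted p but not the fold limit. ELF5, at 1.27 CPM in Empty, fell in both lines and was named after its values were seen. With at least 10 counts required in every library it was not tested, and the falls in NF-YAl numbered 1. The medians of the list were -0.34, -0.96 and 0.68 in the 3 comparisons.

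Of 22 epithelial junction markers, 4 rose and 3 fell in NF-YAl, 1 rose and 5 fell in NF-YAs, and 4 were higher and 0 lower in NF-YAl than in NF-YAs, with medians of -0.02, -0.48 and 0.61. CLDN1, a tight junction claudin, rose in NF-YAl (3.24 to 13.8 CPM, 2.10, SE 0.322), as did SPINT1, a protease inhibitor (1.16, SE 0.10002). DSP, the desmosome linker desmoplakin, fell in NF-YAl from 100 to 18.4 CPM (-2.46, SE 0.389), together with KRT8 (-1.33, SE 0.0979) and CLDN4 (-1.25, SE 0.175). MAL2, a protein of apical transport, fell in NF-YAs from 473 to 102 CPM (-2.22, SE 0.172), together with the desmosomal cadherin DSC2 (-1.64, SE 0.150) and the mucin MUC1 (-1.42, SE 0.235). EPCAM and CDS1 in NF-YAl, EPCAM in NF-YAs, and CLDN4 and CLDN7 in NF-YAs complete these calls and were named after their values were seen. EPCAM thus rose in both lines (2.16, SE 0.249, and 1.46, SE 0.255) where CDH3 fell, but at low levels. Its means were 0.982 CPM in Empty, 4.42 CPM in NF-YAl and 2.71 CPM in NF-YAs.

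Of 21 mesenchymal markers, 5 rose and 1 fell in NF-YAl, 6 rose and 1 fell in NF-YAs, and 1 was higher and 5 lower in NF-YAl than in NF-YAs, with medians of 0.07, 0.45 and -0.16. PDGFRA, a growth factor receptor of mesenchymal cells, rose from 4.21 CPM in Empty to 51.1 CPM in NF-YAl (3.60, SE 0.232) and 63.9 CPM in NF-YAs (3.92, SE 0.234). SPARC, a matrix glycoprotein, was at 294, 1540 and 731 CPM in Empty, NF-YAl and NF-YAs, and COL3A1 rose in NF-YAl (2.04, SE 0.436). COL3A1 was at 41.3, 170 and 124 CPM in the same order, with widely spread libraries (25.5 to 70.8 CPM in Empty, 75.7 to 261 CPM in NF-YAl). In NF-YAs against Empty COL3A1 just missed the limit on adjusted p (1.59, SE 0.431, adjusted p = 0.0127). It was not called between the isoforms (0.45, SE 0.418, adjusted p = 0.461). MMP9, a matrix protease, and COL1A1 rose in NF-YAs (3.03, SE 0.238, and 1.67, SE 0.181), and both were lower in NF-YAl than in NF-YAs (-1.53, SE 0.214, and -1.45, SE 0.180), while SPARC was higher there (1.07, SE 0.2496). S100A4, a calcium-binding protein linked to motility, fell in both lines from 28.7 CPM to 6.09 and 6.04 CPM. MMP9 and ITGAV in NF-YAl, SPARC, MMP2 and COL1A2 in NF-YAs, and MMP2 and CNN1 between the isoforms were also called and were named after their values were seen.

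Of 9 further cadherins, CDH12, CDH6 and CDH7 rose in NF-YAl (2.35, SE 0.217; 1.81, SE 0.248; 1.32, SE 0.195), CDH8 fell (-1.12, SE 0.175), and CDH12 and CDH6 rose in NF-YAs (2.05, SE 0.218, and 1.52, SE 0.248). CDH7 was also higher in NF-YAl than in NF-YAs (1.21, SE 0.197), and the medians were 0.40, 0.13 and 0.28. Of 14 catenins and adaptors, CTNND2, the delta-2 catenin, rose in both lines (2.596, SE 0.269, and 2.40, SE 0.271), as did CTNNA2, named after its values were seen and not tested where at least 10 counts were required in every library, with medians of 0.02, -0.13 and 0.18. Of 11 further intermediate filaments, NEFL, a neurofilament protein, fell in NF-YAl (481 to 199 CPM, -1.27, SE 0.127) and was lower there than in NF-YAs (-1.05, SE 0.126). PRPH, named after its values were seen, also fell in NF-YAl. No filament gene of this list was called in NF-YAs against Empty, and the medians were -0.15, 0.06 and -0.41.

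**Figure D3:**
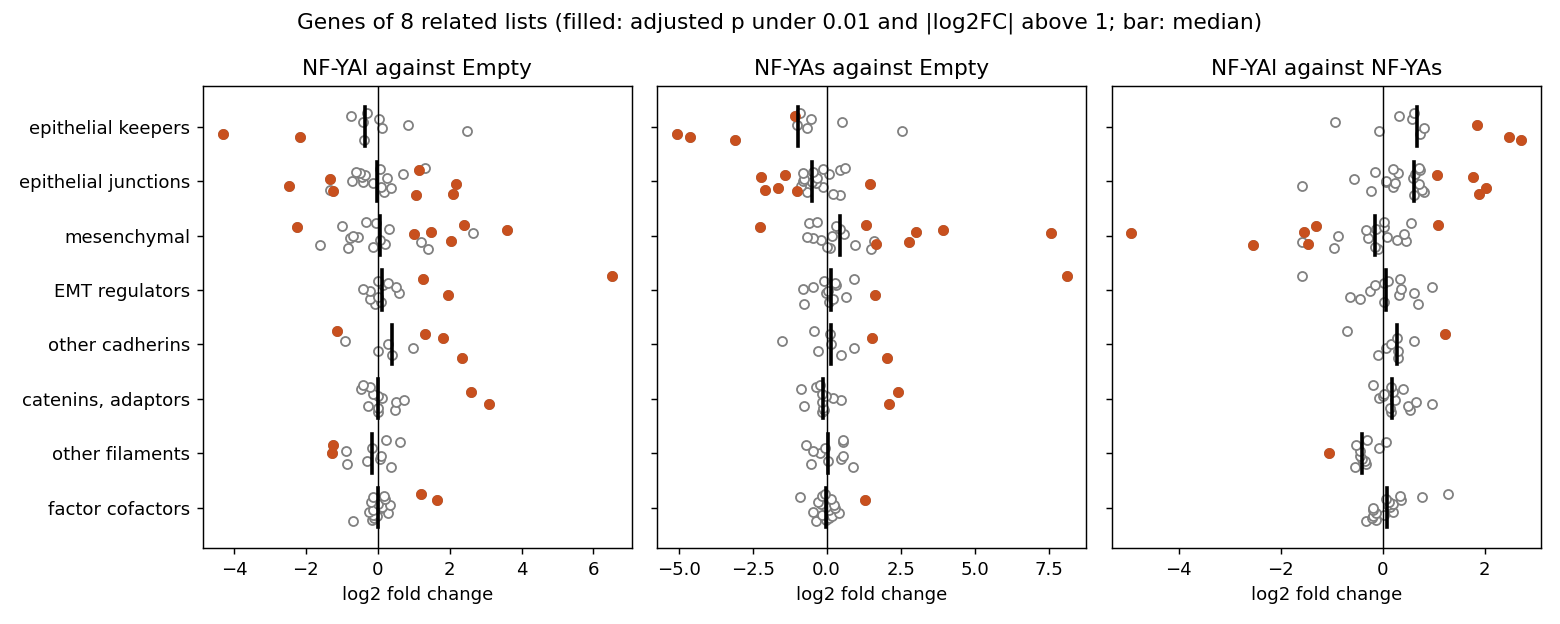
Log2 fold change (x axis, scaled per panel) of the tested genes of 8 related lists (y axis) in the 3 comparisons; each point is a gene, filled where called, and the bar is the list's median. The median of the epithelial keepers lies at -0.34 in NF-YAl and -0.96 in NF-YAs against Empty.

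For each member that was called, the genes with the most similar profile were ranked by the root mean square (RMS) difference of log2(CPM + 1), centred on each gene, over the 9 libraries, among genes of at least 5 CPM on average. They were AGR2 (RMS 0.146), SHC4 and KIAA1024 for SNAI1, and TNC (RMS 0.201), BCL11B and NRP2 for SNAI2. TNC, the matrix protein tenascin-C, was at 149 ± 22.0, 109 ± 14.9 and 416 ± 49.7 CPM in Empty, NF-YAl and NF-YAs (SD, n = 3). For ZEB2 they were FGF5 (RMS 0.142), CD70 and GLIPR1, and for CDH1 TIPARP (RMS 0.131), EYS and GOLPH3L. For CDH3 they were S100P (RMS 0.280), KRT38 and C1orf116, and S100P stood at 11.8 ± 1.996, 4.81 ± 1.39 and 1.12 ± 0.469 CPM. For CDH11 they were SLCO4A1 (RMS 0.119), EFNB1 and ANXA3, and SLCO4A1 stood at 585 ± 54.6, 188 ± 61.0 and 235 ± 21.2 CPM. The added 1 shrinks the changes of low members, so a near gene can have a smaller fold change than the member. ZEB2 was at 0.703, 1.31 and 2.26 CPM in Empty, NF-YAl and NF-YAs, and FGF5 at 16.8, 21.4 and 28.2 CPM. SNAI1 was at 5.58, 3.75 and 1.79 CPM, and AGR2 at 177, 138 and 81.5 CPM.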

How the data were processed

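RNA of pooled PC-3 spheroids was sequenced in 9 libraries with a stranded total RNA kit. The authors aligned reads to the GRCh37/hg19 transcriptome with Bowtie2 within RSEM and deposited, per library, expected counts and TPM of genes and transcripts, and the percent of each gene's TPM per transcript. RSEM divides reads shared by transcripts by a model, so transcript shares carry that uncertainty. The 10 members and the wider lists were chosen with earlier results of these data known.

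The gene-level values were rounded to whole numbers for edgeR 4.0.16 (R 4.3.3): filterByExpr left 17108 of 27111 genes, TMM scaling, 1 quasi-likelihood fit of all 9 libraries by group, and Benjamini-Hochberg adjustment over all tested genes, with calls at adjusted p under 0.01 and a log2 fold change beyond 1. SE is the log2 fold change divided by the square root of F. The test was tested on simulated data. Replicate libraries of a group differed by more than sampling noise, so none was counted as a second sequencing of another. This cannot show that they come from separate experiments. With 3 against 3 libraries, no exact permutation test of a single gene could go below 0.10, so calls rest on the model over all genes. The study describes separate experiments, but the labels do not tie a library to one, so the p-values measure the spread between these libraries. Replicate letters were not treated as pairs. Promoter windows come from RefSeq (GRCh38.p14) and gene positions from the GENCODE annotation on GRCh37.

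Named genes were the 10 members, NFYA, antisense partners and neighbours, up to 3 called genes per list, comparison and direction with the changes largest in size (at least 5 CPM in the higher group, libraries not overlapping), and the 3 nearest genes in profile. A gene that this rule names is not reported here. Alternatives were DESeq2 1.42.0, other scalings and filters, fits of only the 2 groups, a replicate block, a length offset, limma 3.58.1 on log2(TPM + 1), other thresholds and leaving out each library.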

Additional observations from a re-analysis of the deposited data

How the results depend on the processing

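Of the 30 changes of members (10 genes in 3 comparisons), 18 kept direction and call under all 20 alternatives. With limma on log2(TPM + 1), 1 member was called in NF-YAl against Empty, 3 in NF-YAs against Empty and 2 in NF-YAl against NF-YAs. On that scale the pseudocount shrinks the changes of low genes, and the median of all tested genes shifted by 0.21, 0.13 and 0.08. CDH11 (adjusted p = 0.0132 in NF-YAl, 0.0582 in NF-YAs), CDH1 (0.062) and ZEB2 (0.108) in NF-YAs against Empty then missed the threshold, SNAI1 missed it in NF-YAl against NF-YAs (0.0353), and CDH1 there missed the fold limit (0.91). The direction turned for SNAI2 in NF-YAl against Empty (0.01221) and for TWIST1 in NF-YAs against Empty (0.01895) with limma, and for ZEB1 in NF-YAs against Empty without Empty A (-0.006016, to 0.1109 without Empty C), none of which was called. Leaving out 1 library gave 2 to 2, 5 to 6 and 3 to 3 called members in the 3 comparisons. Between the isoforms SNAI1 was also lost with only the 2 groups fitted (adjusted p = 0.0192). ZEB2 had 11 to 67 counts per library, and SNAI1 28 to 48 in NF-YAs.

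The replicate block left the number of called members at 2, 6 and 4, with SNAI1 at 1.25 (adjusted p = 0.00351) in NF-YAl against NF-YAs, and changed no call of a member. Residual correlations of libraries with the same letter ran from -0.0652 to 0.253, with a mean of 0.086 over 7 pairs. Those of libraries with different letters ran from -0.220 to 0.163, with a mean of -0.030 over 20 pairs. Not every same-letter pair was above 0.1, and Empty and NF-YAl share 2 letters only, so the letters were not read as pairs. These values do not show that the libraries are unpaired. Among the wider lists, the block moved the mesenchymal markers called lower in NF-YAl against Empty from 1 to 3 and the cofactors called higher from 2 to 1. In NF-YAl against NF-YAs it moved the keepers and the junction markers called lower from 0 to 1 each and the filaments called lower from 1 to 0. With at least 10 counts in every library, in NF-YAl against Empty the keepers called lower and the catenins called higher went from 2 to 1 each. In NF-YAs against Empty the EMT regulators and the catenins called higher went from 2 to 1 each, and in NF-YAl against NF-YAs the mesenchymal markers went from 1 to 0 higher and from 5 to 3 lower. Leaving out single libraries, limma and the other thresholds also moved counts of these lists.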
